A study of Mus musculus with 16 samples.

Results

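Genes of the circadian clock were read in gonadal white adipose tissue (gWAT), the fat pad around the testes, of 16 male mice. The 10 members were chosen by name: *Per1*, *Per2*, *Per3*, *Dbp*, *Tef*, *Ciart*, *Nr1d1*, *Nr1d2*, *Arntl* and *Bhlhe40*, among the 19373 rows of a table of FPKM values (fragments per kilobase of transcript, scaled to the fragments mapped). The table has a row for 9 of the 10 members, and *Ciart* was not analysed here. The mice formed 4 groups of 4. Control mice carried the floxed *Mboat7* allele without Cre (*Mboat7* flox/flox), and *Mboat7* ASKO mice carried the same allele with a Cre recombinase driven by the adiponectin promoter, which deletes *Mboat7* in adipocytes and leaves it in the other cells of the fat pad. All mice were on the C57Bl6/J background, and each genotype was fed either standard chow or a high-fat diet (HFD, 60% of energy from fat) for 20 weeks. The age of the mice beyond age matching was not given in the sources used here.

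The clock is a feedback loop of transcription that runs in almost every cell. The proteins made from *Clock* and *Arntl* (BMAL1) bind E-box sequences and switch on the *Per* and *Cry* genes, whose products then block them. The same pair switches on *Nr1d1* and *Nr1d2* (REV-ERB alpha and beta), nuclear receptors that repress *Arntl* at ROR sites, and *Dbp* and *Tef*, which act on D-box sequences of output genes. In fat, as in liver, messages of *Dbp* and *Nr1d1* swing widely between day and night, out of phase with *Arntl*, so the hour of collection bears on their level. The study's methods state that the mice of the 20-week diet were fasted for 4 h, from 9 am to 1 pm, before necropsy, and they give these hours for the whole diet study. The order in which the mice were taken, the light schedule of the room and the hour of each mouse were not given in the sources used here. All values are from 1 window of the day, so no rhythm could be measured, and a shift of phase and a change of level cannot be told apart. In a piece of whole fat, fewer cells of a type and less RNA per cell cannot be told apart either.

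The 16 FPKM columns summed to between 606407 and 982016. The table gives no counts, but low values fell near whole multiples of a step, and this step put the depth at an estimated 226757 to 409836 fragments per mouse on the scale of the table. In the best mouse 87.9% of low values came within 0.2 steps of a whole multiple and in the poorest 48.7%, where an even spread would give 40%. The step was chosen to fit these same values, which by itself raises the share. The poorest mouse is thus not shown to exceed an even spread, and all fragment numbers below are estimates. Adipocyte markers defined the tissue in every mouse: the 8 listed genes summed to between 4643 and 25662 FPKM. On HFD, 5 of these 8 passed the test as lower and 1 (*Lep*, leptin) as higher, while 9 of 10 macrophage markers passed as higher, their sum going from 216 to 299 FPKM in the 8 chow mice to 657 to 1356 FPKM in the 8 HFD mice. Of the T and B cell markers, 4 of 5 were in the table and no mouse had more than 6.12 FPKM for all 4, and *Ucp1*, the mark of brown fat, was at 0 in 3 of 4 groups and reached 1.94 FPKM in the other. The targeted gene overlapped between genotypes: on chow *Mboat7* was at 0.902 to 4.99 FPKM in control and 0 to 2.89 FPKM in ASKO mice, and on HFD at 0 to 2.15 and 0 to 2.60 FPKM. These are low values, as 1 fragment on 1 kilobase of transcript is worth an estimated 2.44 to 4.41 FPKM. They are also of the whole pad, whose other cells keep the gene. The study found less MBOAT7 protein in gWAT of chow-fed ASKO mice, and on both diets less of the enzyme's main lipid product.

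Of the 9 members in the table, 4 were above 0 in every mouse. *Nr1d1* was at 10.7 to 51.7 FPKM, *Dbp* at 3.42 to 35.2 FPKM, *Nr1d2* at 4.90 to 25.7 FPKM and *Tef* at 0.790 to 5.16 FPKM over the 16 mice. The medians were an estimated 21.0 fragments per mouse for *Nr1d1*, 16.6 for *Nr1d2*, 8.73 for *Dbp* and 3.0 for *Tef*, taking the longest coding transcript of each gene. *Nr1d1* has 1 coding transcript, but with the shortest one the medians of *Nr1d2*, *Dbp* and *Tef* would be 2.62, 5.49 and 0.272 fragments. Counting alone gives, at the medians for the longest transcript, a coefficient of variation of 21.8%, 24.6%, 33.8% and 57.8% for *Nr1d1*, *Nr1d2*, *Dbp* and *Tef*, and 61.8%, 42.7% and 192% for the last 3 with the shortest. The other 5 members in the table, *Per1*, *Per2*, *Per3*, *Arntl* and *Bhlhe40*, had a median of about 1 fragment or 0 and were at 0 in 6 to 11 of the 16 mice. For these the FPKM values say little more than whether 1 fragment was seen, and fold changes of single genes are given for the 4 members above 0 in every mouse and, with its limits, for *Per2*.

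**Figure D1:**
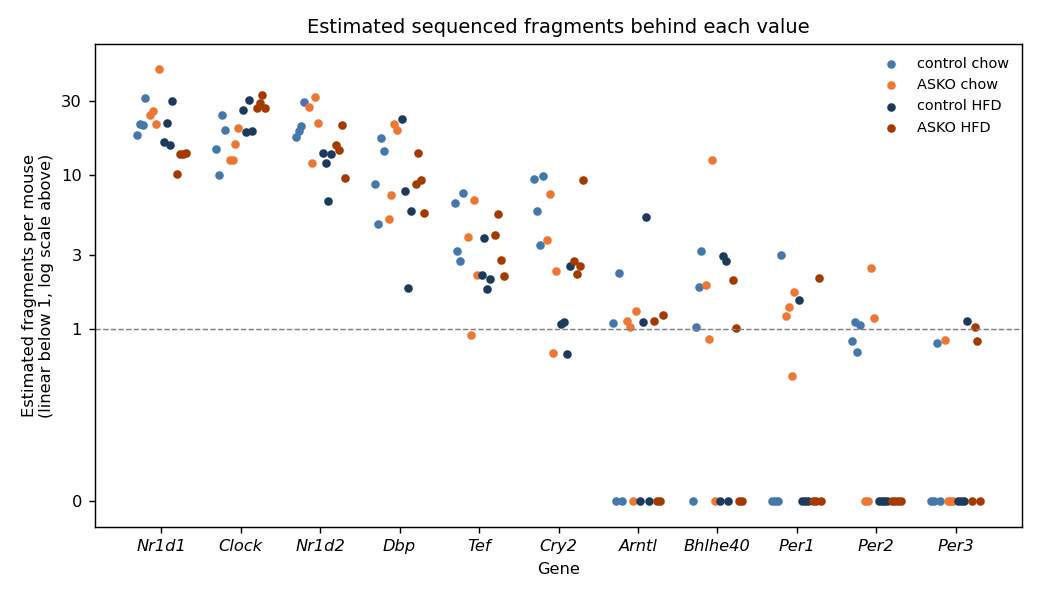
Estimated fragments behind each value, from the step of the low FPKM values and the longest coding transcript, 1 point per mouse coloured by group (linear below 1 fragment, log scale above, dashed line at 1). *Nr1d1*, *Clock* and *Nr1d2* rest on medians of 21.0, 19.7 and 16.6 fragments per mouse, while the points of *Per1*, *Per2*, *Per3*, *Arntl* and *Bhlhe40* sit mostly at 0 or near 1.

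Groups were compared with limma on log2(FPKM + 1), over 13147 genes that reached 1 FPKM in 4 or more mice, and a gene passed at an adjusted p under 0.05 with a log2 fold change beyond 0.5 in either direction. All fold changes are on that log2 scale, which understates changes of low genes. The filter was met by 7 members (*Per2* and *Per3* did not), and 6 comparisons were made. With both genotypes averaged, 0 of the 7 passed as lower on HFD, against 3.04% of all genes tested. All 7 had a negative fold change, with a median of -0.56 against 0.01 over all genes tested. Of the 7, 3 (*Per1*, *Arntl* and *Bhlhe40*) rest on about 1 fragment per mouse or less, and *Per1* met the filter mainly through chow mice. The filter left out *Per3*, at 0.06 in a fit without it, and *Per2*, at -0.54. The shared direction of the 7 was not tested. At an unadjusted p under 0.05, 2 of the 7 were lower, *Nr1d1* and *Nr1d2*. In control mice alone, 0 of 7 passed as lower (1.10% of all genes), and in ASKO mice alone 1 of 7 passed as lower (1.30% of all genes), namely *Nr1d1*. Between the genotypes, 0 of 7 passed on chow or on HFD, where 0.00761% of all genes passed in each case, and 0 of 7 passed the genotype-by-diet interaction, where 0% of all genes did. The number of all genes at an unadjusted p under 0.05 was 827 for the interaction.

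*Nr1d1* encodes the heme-binding nuclear receptor that represses *Arntl*. In control mice on chow it was at 23.2, 27.0, 22.2 and 32.2 FPKM, in ASKO mice on chow at 39.3, 34.1, 23.8 and 51.7 FPKM, in control mice on HFD at 14.5, 27.5, 19.4 and 37.3 FPKM, and in ASKO mice on HFD at 10.7, 13.7, 13.9 and 14.3 FPKM. Every ASKO mouse on HFD lay below every other mouse of the study, while the control mice on HFD overlapped those on chow on both sides. The gap was narrow: ASKO mouse 3 on HFD had 14.3 FPKM (an estimated 13.9 fragments) and control mouse 0 on HFD 14.5 FPKM (16.2 fragments). That difference is within the counting error given above. The group means were 37.3 ± 11.6 (ASKO chow), 26.1 ± 4.52 (control chow), 24.7 ± 9.95 (control HFD) and 13.2 ± 1.65 FPKM (ASKO HFD, all SD, n = 4), and the middle pair differed by less than the spread of either group. In ASKO mice *Nr1d1* was lower on HFD, with a log2 fold change of -1.39 (SE 0.33, limma, adjusted p = 0.0254), with no overlap in 4 against 4 mice. Groups without overlap, lower on HFD in ASKO mice, were found for 1 of 7 members and for 4.42% of all genes.

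The *Nr1d1* call stood close to the threshold. It was lost in 10 of 26 alternatives, with log2 fold changes from -1.58 to -1.18 and adjusted p from 0.0151 to 0.0845 (limma) over all of them. Leaving out any mouse of the ASKO HFD group, or replicate 0, 1 or 3 of the ASKO chow group, gave an adjusted p above 0.05. In control mice the diet contrast was -0.15 (SE 0.33, adjusted p = 0.905, limma). The difference of the diet contrasts between genotypes was -1.24 (SE 0.47, limma, adjusted p = 0.663), so a different diet response of *Nr1d1* in the genotypes was not shown. Averaged over genotypes the diet contrast was -0.77 (SE 0.23, adjusted p = 0.0540, limma), and no member was without overlap between the 8 chow and 8 HFD mice, which 0.761% of all genes were, lower on HFD. ASKO mice differed from controls by 0.46 on chow and by -0.78 on HFD (SE 0.33 each, adjusted p = 0.983 and 0.916, limma). On HFD the 2 genotypes did not overlap in *Nr1d1*, 1 of 7 members, against 3.38% of all genes in either direction. This rests on the narrow gap of 14.3 against 14.5 FPKM. On chow 0 of 7 members were without overlap (2.19% of all genes).

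*Nr1d1* shares its end with a neighbour. It lies on the minus strand of chromosome 11 (mm10, chr11:98767932-98775333), where its exons share 263 bases with *Thra*, the thyroid hormone receptor alpha gene on the plus strand, or 8.55% of its exon bases, in GENCODE M21. The kit was directional, but whether strand entered the counting was not stated, and reads of the shared bases cannot be told apart without it. *Thra* was listed at 2.56 to 13.5 times the FPKM of *Nr1d1* in the same mouse. It was at 255, 140, 149 and 125 FPKM in control mice on chow, 296, 248, 322 and 200 in ASKO mice on that diet, 155, 81.2, 62.0 and 95.3 in the HFD-fed controls, and 74.1, 67.1, 47.5 and 74.1 in the HFD-fed ASKO mice. The order of the 4 group means was thus the same as for *Nr1d1*, and the ASKO groups again did not overlap. *Thra* fell on HFD by -1.39 averaged over genotypes (SE 0.22, adjusted p = 0.000503, limma) and by -2.0 in ASKO mice (SE 0.31, adjusted p = 0.000985), and its contrast in control mice was -0.79 (SE 0.31, adjusted p = 0.226). Within a diet, no relation between *Thra* and *Nr1d1* passed: over 8 chow mice Pearson's r was 0.0676 (exact permutation p = 0.873) and Spearman's rho 0.0238 (p = 0.977), and over 8 HFD mice r was 0.203 (p = 0.616) and rho 0.429 (p = 0.299). Without the 2 mice farthest from the median of *Thra*, r was 0.0425 on chow and 0.669 on HFD. These were 2 of 6 such relations, each with the genotypes pooled, and all 6 had adjusted p of 0.256 or more for r and 0.720 or more for rho. The part of *Thra* reads in the *Nr1d1* values was not tested.

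**Figure D2:**
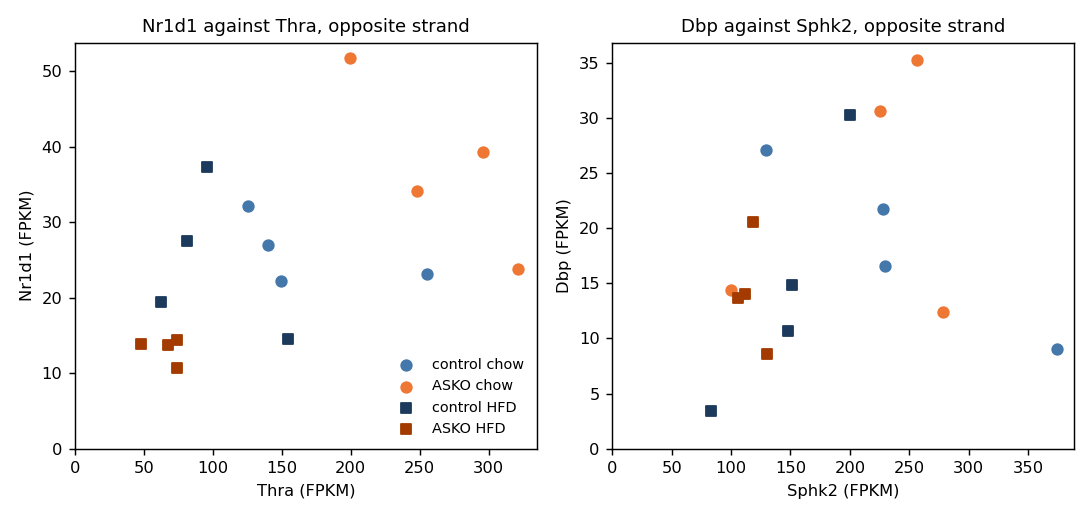
FPKM of *Nr1d1* against *Thra* (left) and of *Dbp* against *Sphk2* (right), genes that share exon bases on opposite strands, 1 point per mouse (circles chow, squares HFD). The 4 ASKO mice on HFD sit lowest in *Nr1d1*, at 10.7 to 14.3 FPKM, with *Thra* at 47.5 to 74.1 FPKM.

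*Nr1d2* encodes REV-ERB beta, the paralog of *Nr1d1* with an overlapping role, and has no exon overlap with another gene. It was at 13.1, 14.3, 12.8 and 17.7 FPKM in control mice on chow and at 7.23, 8.86, 4.90 and 9.90 FPKM in control mice on HFD. In ASKO mice it was at 25.7, 9.18, 20.7 and 13.5 FPKM on chow and at 9.63, 8.51, 12.6 and 5.71 FPKM on HFD. The control groups did not overlap, which 1 of 7 members and 3.89% of all genes showed lower on HFD, and the ASKO groups did. The diet contrast was -0.85 in control mice (SE 0.37, adjusted p = 0.298, limma) and -0.80 in ASKO mice (adjusted p = 0.320), and -0.83 averaged over both (SE 0.26, adjusted p = 0.0682). The means went from 15.9 ± 5.27 FPKM in the 8 chow mice to 8.41 ± 2.46 FPKM in the 8 HFD mice (SD), and the difference between genotypes was 0.16 on chow and 0.20 on HFD (adjusted p = 0.997 and 0.993, limma). With the genotypes pooled, no relation between *Nr1d1* and *Nr1d2* from mouse to mouse was detected. Over the 8 chow mice r was 0.0786 (exact permutation p = 0.855, rho 0.262, p = 0.536). Over the 8 HFD mice it was 0.0414 (exact permutation p = 0.925, rho -0.0952, p = 0.840). Without the 2 mice farthest from the median of *Nr1d1*, r was -0.299 and -0.671. The genotypes did not overlap in *Nr1d1* on HFD, and relations within a genotype were not tested.

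The start regions of both genes are shown because E-box sites there are the classic inputs of the clock. A set of 4 motifs was searched on both strands in the RefSeq windows (GRCm38.p6, 250 bases before to 50 after a start): the E-box CACGTG, the E'-box CACGTT, the D-box TTATGTAA or TTACGTAA, and the ROR core TAGGTCA or TGGGTCA. E-box and E'-box matches never share all letters, and a match is a description of the sequence only. The E'-box was found in the *Nr1d1* window, as its reverse complement AACGTG, starting 28 bases before the start site, and in 4.68% of all 32851 windows. The *Nr1d2* window held none of the motifs. The 250 bases upstream of each start are given from 5′ to 3′ in the direction of the gene, with the match in capitals.
Nr1d1 chr11:98775378-98775627 (-): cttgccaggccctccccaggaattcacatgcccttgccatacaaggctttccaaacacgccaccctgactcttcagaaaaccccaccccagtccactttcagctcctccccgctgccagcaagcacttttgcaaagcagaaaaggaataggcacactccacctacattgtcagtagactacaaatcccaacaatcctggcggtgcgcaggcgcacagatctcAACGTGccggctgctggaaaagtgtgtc
Nr1d2 chr14:18239107-18239356 (-): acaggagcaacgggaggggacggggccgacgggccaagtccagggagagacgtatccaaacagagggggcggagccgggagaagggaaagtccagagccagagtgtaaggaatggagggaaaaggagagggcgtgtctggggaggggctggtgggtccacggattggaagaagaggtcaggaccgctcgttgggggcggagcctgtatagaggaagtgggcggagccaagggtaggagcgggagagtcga

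**Figure D3:**
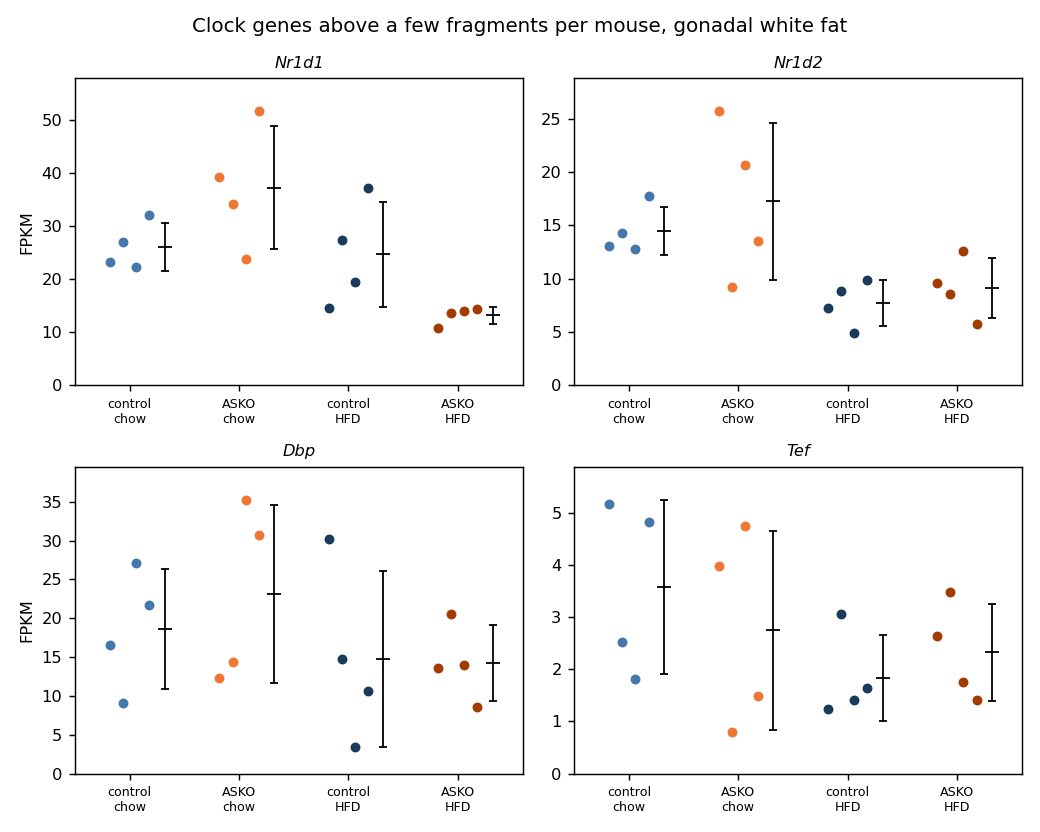
FPKM of *Nr1d1*, *Nr1d2*, *Dbp* and *Tef* in each mouse (points) by genotype and diet, with the mean and SD of each group of 4 (bar to the right of the points). *Nr1d1* is at 10.7 to 14.3 FPKM in the ASKO mice on HFD, below the 23.8 to 51.7 FPKM of the ASKO mice on chow, and the points of *Dbp* and *Tef* overlap between all groups.

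*Dbp* and *Tef* encode PAR bZIP transcription factors, the output arm of the clock. *Dbp* was at 16.6, 9.06, 27.1 and 21.7 FPKM in control mice on chow and at 12.4, 14.4, 35.2 and 30.7 FPKM in ASKO mice on chow. On HFD it was at 30.2, 14.8, 3.42 and 10.7 FPKM in control mice and at 13.6, 20.6, 14 and 8.61 FPKM in ASKO mice. All groups overlapped, and the control mice on HFD alone spanned nearly the range of the study. The means were 18.6 ± 7.69 and 23.2 ± 11.5 FPKM on chow and 14.8 ± 11.3 and 14.2 ± 4.90 FPKM on HFD, control before ASKO (SD, n = 4). The diet contrast was -0.56 averaged over genotypes (SE 0.38, adjusted p = 0.474, limma), -0.54 in control and -0.59 in ASKO mice, and the genotypes differed by 0.27 on chow and 0.21 on HFD. Single mice moved these values: without control HFD replicate 2 the contrast was -0.31 averaged and -0.0307 in control mice, and without control HFD replicate 0 it was -0.78 and -0.97. The interaction was -0.06 (SE 0.76, adjusted p = 0.997), and its sign turned under 3 other scalings. *Dbp* (chr7:45705088-45710203, plus strand) shares 539 bases, 18% of its exon bases, with *Sphk2*, a sphingosine kinase gene on the minus strand. *Sphk2* was at 100 to 375 FPKM on chow and 82.9 to 200 FPKM on HFD, and at 4.76 to 41.3 times the FPKM of *Dbp* in the same mouse. The relation of *Dbp* to *Sphk2* within a diet was r = -0.251 on chow (exact permutation p = 0.540, rho -0.381, p = 0.360) and r = 0.732 on HFD (exact permutation p = 0.0427, adjusted p = 0.256, rho 0.571, p = 0.151), and the latter became -0.307 without the 2 mice farthest from the median of *Sphk2*, so it rests on those mice.

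*Tef* was at 5.16, 2.52, 1.82 and 4.82 FPKM in control mice on chow and at 3.98, 0.790, 4.73 and 1.48 FPKM in ASKO mice on chow. On HFD it was at 1.25, 3.05, 1.42 and 1.64 FPKM in control and at 2.64, 3.48, 1.76 and 1.41 FPKM in ASKO mice. Again all groups overlapped, at 1 to 8 fragments per mouse. Its diet contrast was -0.35 averaged over genotypes (SE 0.34, adjusted p = 0.651, limma), -0.65 in control and -0.05 in ASKO mice, the last with a sign that turned under 2 other scalings. The genotypes differed by -0.37 on chow and 0.23 on HFD, with an interaction of 0.60 (SE 0.68, adjusted p = 0.916). The *Dbp* window held none of the 4 motifs, whereas both RefSeq windows of *Tef* held an E-box, at 127 and 138 bases before the start, against 7.15% of all windows. The upstream bases of *Dbp* and of the second *Tef* start are given to show this difference. Bases outside the windows were not searched, so E-boxes elsewhere in either gene were not read.
Dbp chr7:45704997-45705246 (+): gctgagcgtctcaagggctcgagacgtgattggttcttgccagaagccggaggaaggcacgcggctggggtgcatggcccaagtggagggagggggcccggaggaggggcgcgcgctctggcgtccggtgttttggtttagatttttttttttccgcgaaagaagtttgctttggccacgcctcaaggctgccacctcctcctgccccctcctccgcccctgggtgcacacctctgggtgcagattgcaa
Tef chr15:81811164-81811413 (+): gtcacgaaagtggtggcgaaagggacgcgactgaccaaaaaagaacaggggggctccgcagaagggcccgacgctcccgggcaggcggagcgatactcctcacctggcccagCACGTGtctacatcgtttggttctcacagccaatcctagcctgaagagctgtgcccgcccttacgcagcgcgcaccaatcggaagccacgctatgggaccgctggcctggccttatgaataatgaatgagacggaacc

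**Figure D4:**
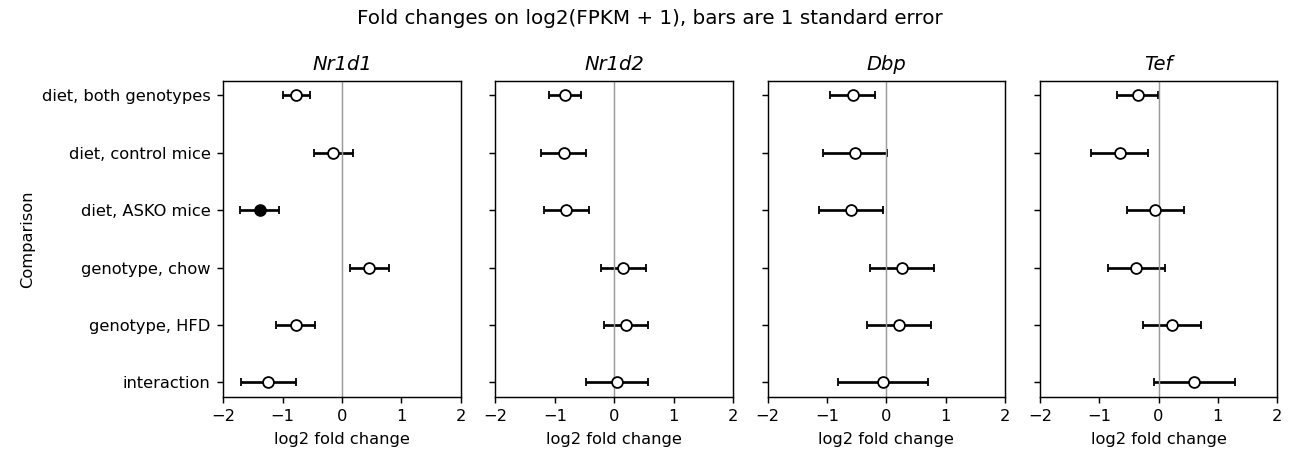
Log2 fold change (point) and 1 standard error (bar) of *Nr1d1*, *Nr1d2*, *Dbp* and *Tef* in the 6 comparisons, on log2(FPKM + 1), with a filled point where the gene passed. Only *Nr1d1* in ASKO mice is filled, at -1.39, and the 4 genes lie left of 0 for the diet averaged over genotypes, between -0.83 and -0.35.

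The *Per* genes encode the repressor proteins of the loop. *Per2* was seen on chow only: it was at 0.557, 0.657, 0.432 and 0.510 FPKM in control mice, at 0, 0, 1.30 and 0.593 FPKM in ASKO mice, and at 0 in all 8 HFD mice. Thus 6 of 8 chow mice had a value above 0 and 0 of 8 HFD mice did. These values amount to an estimated 7.66 fragments over the 8 chow mice, and a count of 0 on HFD allows up to 3. Scaled to depth, 7.66 against 3 would make *Per2* 2.82-fold lower on HFD. That figure takes the chow sum as exact and leaves out its counting error and the spread between mice. It is therefore no lower limit. *Per2* did not meet the filter, and in a fit without the filter its diet contrast averaged over genotypes was -0.54 (SE 0.17, adjusted p = 0.103, limma), which did not pass. *Per1* was above 0 in 5 of 8 chow mice, among them all 4 ASKO mice at 0.471 to 1.16 FPKM and 1 control mouse at 1.81 FPKM, and in 2 of 8 HFD mice at 0.813 and 1.28 FPKM. *Per3* was above 0 in 2 of 8 chow and 3 of 8 HFD mice and never above 0.690 FPKM. Over all 16 mice, the sums were an estimated 11.8 fragments for *Per1*, 7.66 for *Per2* and 4.95 for *Per3*.

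The *Per1* and *Per3* starts are shown because they carry the motifs by which the loop is known to drive them. One of the 2 *Per1* windows held an E-box, 166 bases before the start. The *Per3* window held the D-box TTATGTAA at 205 and at 158 bases before the start, a motif found in 1.06% of all windows. Of the 8 members with a window, 3 held an E-box (*Per1*, *Tef* and *Ciart*, 8.09% of all genes), 1 the E'-box (*Nr1d1*, 5.44%), 1 the D-box (*Per3*, 1.23%) and 1 the ROR core (*Arntl*, 7.35%), where TAGGTCA begins at base 31 of the transcript in 1 of its 2 windows. *Per2* and *Bhlhe40* had no window in the table used.
Per1 chr11:69098699-69098948 (+): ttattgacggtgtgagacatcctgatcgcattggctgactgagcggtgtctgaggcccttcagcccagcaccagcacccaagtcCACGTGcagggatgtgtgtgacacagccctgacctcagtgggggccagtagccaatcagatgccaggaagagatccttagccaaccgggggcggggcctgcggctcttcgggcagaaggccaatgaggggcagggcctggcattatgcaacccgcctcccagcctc
Per3 chr4:151044666-151044915 (-): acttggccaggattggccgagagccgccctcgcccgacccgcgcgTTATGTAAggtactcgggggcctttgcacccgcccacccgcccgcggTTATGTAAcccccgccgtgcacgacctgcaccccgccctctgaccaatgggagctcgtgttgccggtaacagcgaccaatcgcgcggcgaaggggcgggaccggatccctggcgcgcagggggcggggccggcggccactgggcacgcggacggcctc

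*Arntl* encodes BMAL1, the driver of the loop, and *Bhlhe40* encodes DEC1, a repressor that competes for E-boxes. *Arntl* was at 1.29, 0, 2.24 and 0 FPKM in control mice on chow, 1.67, 1.25, 0 and 1.28 in ASKO mice on that diet, 0, 1.29, 6.10 and 0 in the HFD-fed controls, and 1.08, 0, 0 and 1.17 in the HFD-fed ASKO mice. A single control mouse on HFD (replicate 2) reached 5.34 fragments, and all other values were 0 to 2.30 fragments. *Bhlhe40* ranged from 0 to 12.1 FPKM, its top value in 1 ASKO mouse on chow, and was above 0 in 6 of 8 chow and 4 of 8 HFD mice. Neither gene passed in any comparison.

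Since *Arntl* and the *Nr1d1* and *Dbp* messages run out of phase over a day, *Arntl* was related to each other member within each diet. Each relation was over 8 mice with the genotypes pooled. Of 18 relations planned, 15 could be computed, because *Ciart* has no row and *Per2* was at 0 in every HFD mouse. None passed after adjustment: r ran from -0.815 to 0.713 and the lowest adjusted p was 0.259 for r and 0.393 for rho (exact permutation of pairings, two-sided). The strongest relation was with *Dbp* on HFD, where r was -0.815 (exact permutation p = 0.0179, rho -0.571, p = 0.148). Without the 2 mice farthest from the median of *Arntl* it was -0.552 (exact permutation p = 0.20). The same pair on chow gave r = 0.0255 (exact permutation p = 0.954, rho -0.0244, p = 0.979). The mouse with the highest *Arntl* (6.10 FPKM) was also the mouse with the lowest *Dbp* (3.42 FPKM).

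Genes were then ranked by how closely they followed *Dbp* over the 16 mice, with the group means taken out, a description without a test in which all points share the library and its depth. Among 6038 genes with a mean of at least 5 FPKM, the highest r with *Dbp* were those of *Fopnl* (0.87), *Rgs10* (0.83), *Edf1* (0.82), *Polr2m* (0.81) and *Xbp1* (0.80), and the lowest those of *Mtmr7* (-0.87), *Gm13477* (-0.86), *Rnf4* (-0.86), *Gm28989* (-0.85) and *Gm10392* (-0.83). Of the clock genes named here besides *Dbp*, only *Nr1d1*, *Nr1d2* and *Clock* reached that mean, and none is among these 10. For *Arntl*, the highest were *Gm26816* (0.86), *Cald1* (0.86), *1110037F02Rik* (0.85), *Ssr3* (0.82) and *Parp9* (0.79) and the lowest *Rida* (-0.87), *Tubb4b* (-0.86), *Phb2* (-0.85), *Homer3* (-0.84) and *Rps9* (-0.82). Among all 13146 other genes tested, *Bhlhe41* (DEC2, the paralog of *Bhlhe40*) ranked 13 from the top in its r with *Dbp* (0.77), and *Clock* ranked 244 with *Arntl* (0.64). These were the highest ranks of the clock genes read. Others ranked near the bottom, such as *Cry2* at 12188 with *Dbp* (-0.50) and *Nr1d2* at 12430 with *Arntl* (-0.50). *Bhlhe41* was at 0 in 3 of the 16 mice, with a median of 4.0 estimated fragments. It shares 1280 bases, 19.0% of its exon bases, with *Gm43909* on the opposite strand. *Arntl* was at 0 in 7 of the 16 mice. Control HFD replicate 2 held its highest value (6.10 FPKM) and also the highest of *Clock* (10.6 FPKM). The ranks with *Arntl* without that mouse were not computed. The members themselves followed *Dbp* less closely, with r of 0.28 for *Nr1d2*, 0.24 for *Per1*, 0.18 for *Tef*, -0.05 for *Bhlhe40*, -0.21 for *Nr1d1* and -0.53 for *Arntl*.

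Other genes of the loop were read from lists written from general knowledge. Of 11 further core clock genes, 10 were in the table and 7 were tested, and 0 passed in any of the 6 comparisons, where 7.53% of all genes passed for diet averaged over genotypes in either direction. Their median fold change for that contrast was 0.06, against 0.01 over all genes, and for the interaction it was 0.999, against 0.04. The interaction median is the value of *Cry1* (SE 0.60, adjusted p = 0.838, limma), at 0 in 11 mice with an estimated 7.70 fragments in sum. *Nfil3* was at -1.69, *Clock* at 0.14, *Hlf* at 0.36, *Rora* at 1.40, *Cry2* at 1.56 and *Bhlhe41* at 1.71. Medians of *Nfil3* and *Hlf* were 0 and 0.785 fragments per mouse, and a shift of the set was not shown. *Clock*, the partner of *Arntl*, was at 3.52 to 7.19 FPKM in the 8 chow mice and at 6.51 to 10.6 FPKM in the 8 HFD mice, a contrast of 0.51 averaged over genotypes (SE 0.24, adjusted p = 0.252, limma). In ASKO mice its 4 values on HFD, 7.78 to 9.30 FPKM, lay above the 4 on chow, 4.57 to 5.94 FPKM, as was so for 5.18% of all genes. *Cry2*, a repressor of the loop, was at 2.54 to 8.24 FPKM in control mice on chow and 0.662 to 2.19 FPKM in control mice on HFD (contrast -1.61, SE 0.55, adjusted p = 0.154, limma), and at 0.658 to 6.79 and 1.58 to 6.55 FPKM in ASKO mice.

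*Rora*, a nuclear receptor that activates *Arntl* at the sites that REV-ERB occupies, did not pass in any comparison. It was at 1.60 to 3.28 FPKM in control and 0.660 to 2.84 FPKM in ASKO mice on chow, and at 1.17 to 1.56 FPKM in control and 2.56 to 3.93 FPKM in ASKO mice on HFD, so that the genotypes did not overlap on HFD (adjusted p = 0.963, limma), as 3.38% of all genes did not, and the control groups did not overlap by diet, as 3.89% of all genes did not, lower on HFD. *Bhlhe41* was at 2.98, 2.85, 12.3 and 23.6 FPKM in control mice on chow and at or below 6.29 FPKM in all other mice. *Nfil3*, the repressor that opposes *Dbp* at D-boxes, was above 0 in 1 of 8 chow and 5 of 8 HFD mice. *Cry1* was above 0 in 5, *Hlf* in 9 and *Npas2* in 2 of the 16 mice.

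**Figure D5:**
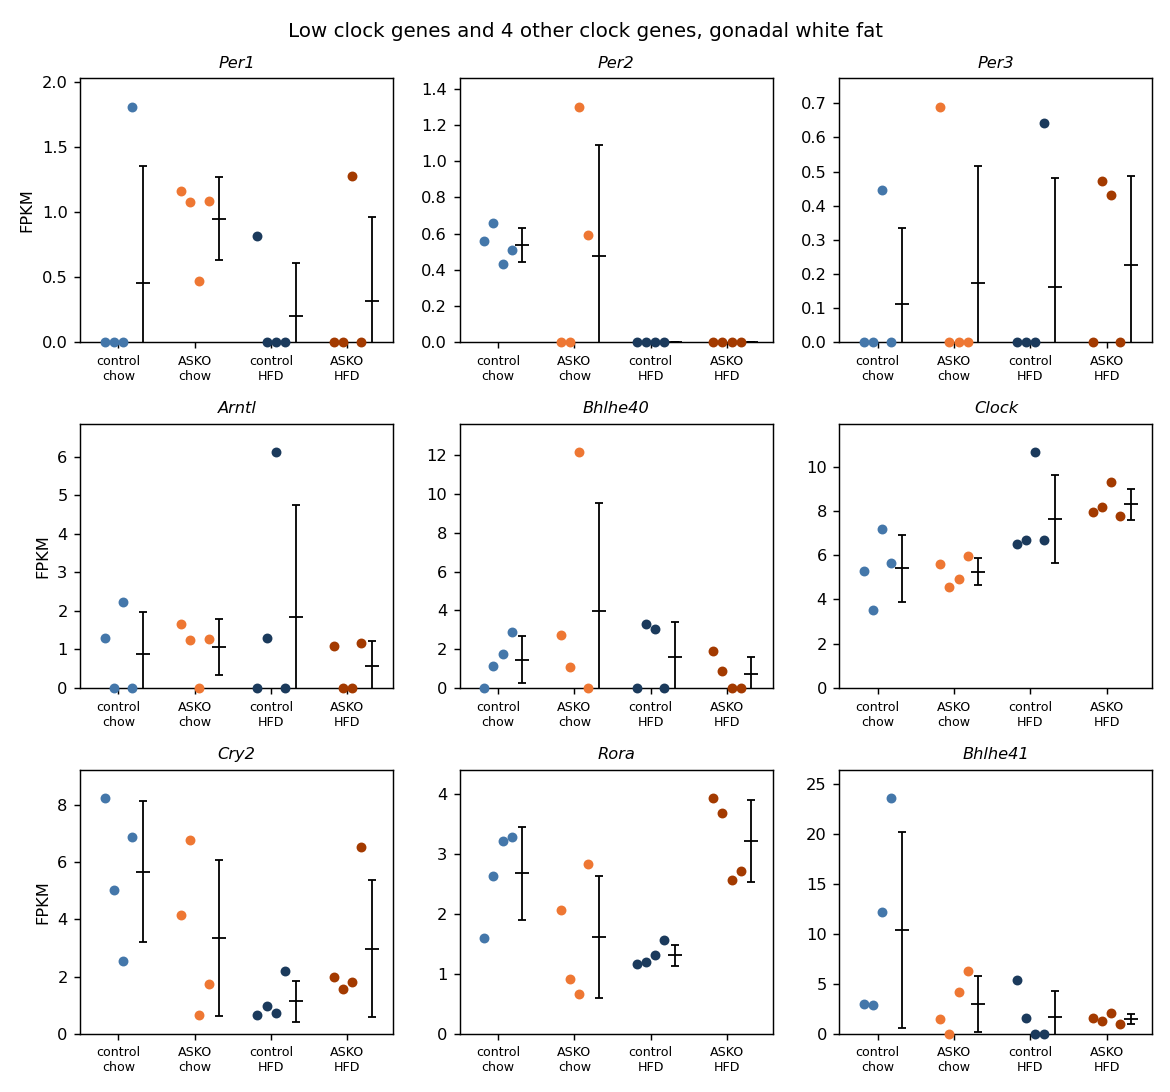
FPKM of *Per1*, *Per2*, *Per3*, *Arntl* and *Bhlhe40* and of *Clock*, *Cry2*, *Rora* and *Bhlhe41* in each mouse (points) by genotype and diet, with the mean and SD of each group of 4 (bar to the right, drawn down to 0 where it would pass below). *Per2* is above 0 in 6 of the 8 chow mice and at 0 in the 8 HFD mice, and *Rora* is at 2.56 to 3.93 FPKM in the ASKO mice on HFD, above the 1.17 to 1.56 FPKM of the controls.

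The remaining lists hold proteins that modify the clock and genes downstream of it, and their counts stand against 7.53% of all genes passing for diet averaged over genotypes. Of 18 kinases, ligases and cofactors of clock proteins, 18 were tested and 0 passed in any comparison (median for diet averaged over genotypes 0.00 against 0.01 over all genes). Of 12 genes that cycle in many tissues, 11 were tested and 1 passed: *Por*, the electron donor of cytochromes P450, which fell on HFD by -1.24 averaged over genotypes (SE 0.31, adjusted p = 0.0177, limma), from 14.2 to 44.4 FPKM in the 8 chow mice to 6.37 to 27.0 FPKM in the 8 HFD mice. Of 11 targets of glucocorticoids, hormones that set peripheral clocks, 11 were tested and 0 passed, with a median of 0.06. Of 12 immediate early genes, which respond to handling and stress, 9 were tested and 1 passed, *Atf3*, a stress-induced repressor that macrophages also express. The median of the 9 was 0.78 averaged over genotypes, 0.90 in control and 0.66 in ASKO mice. *Atf3* was at 0 to 3.10 FPKM in the 8 chow mice, 5.21 to 13.5 FPKM in control and 11.2 to 21.4 FPKM in ASKO mice on HFD, and rose by 3.16 averaged over genotypes (SE 0.39, adjusted p = 5.07e-05, limma). The macrophage markers rose in the same mice, and their part in these values was not tested.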

How the data were processed

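RNA of gWAT from 16 mice was sequenced, each mouse as its own library from a strand-keeping mRNA kit. The authors trimmed the reads, placed them on mm10 with STAR and GENCODE gene models, and ran Cufflinks, whose FPKM values the deposited table holds. The GENCODE release, the use of strand and the library scaling were not stated. Symbols on more than 1 row (20) kept the row with the highest mean, and 22 names turned into dates were restored. Groups came from the labels. The main test was limma 3.58.1 (R 4.3.3) on log2(FPKM + 1), all 4 groups in 1 fit with the intensity trend, no covariates, over the 13147 genes that reached 1 FPKM in 4 or more mice, and p-values were adjusted by Benjamini-Hochberg within each comparison. Fragments were estimated from the step of low values in 1452 coding genes whose single transcript is 1000 bases or longer. Relations within a diet used exact permutation of pairings over 8 mice, with the genotypes pooled and their means left in. Those with *Thra*, with *Sphk2* and between *Nr1d1* and *Nr1d2* were added after the values were seen. On simulated data the diet test called 11.9%, 65.7% and 86.9% of genes changed by 1, 2 and 3 on the log2 scale (200 of 13147 genes). All 10 members are named, as are 8 other core clock genes (1 listed gene is not reported here), listed genes that passed, and for *Dbp* and *Arntl* the 5 genes highest and 5 lowest in r. *Thra*, *Sphk2*, *Mboat7* and *Ucp1* were named after their values were seen. The members and lists were chosen with earlier results of these data known. Alternatives were another pseudocount, filter, scaling or limma setting, only the groups compared, a replicate block, and each mouse left out. Python 3.11.15, numpy 2.4.6, pandas 2.3.3, scipy 1.17.1 and matplotlib 3.10.9 made the tables and plots.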

Additional observations from a re-analysis of the deposited data

Results flagged for a closer look

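In 7 of the 36 groups of 4 values screened (9 members in 4 groups), 1 mouse stood apart from the other 3 by the Dixon criterion. For continuous values chance flags about 1 in 20 groups, a rate that does not carry over here: 34 of the 36 groups had any spread, and in 6 of the 7 the other 3 mice were at 0, so that a single fragment was enough. *Per1* was at 1.81 FPKM in control mouse 3 on chow, at 0.813 FPKM in control mouse 0 on HFD and at 1.28 FPKM in ASKO mouse 2 on HFD, each with the other 3 mice at 0. In ASKO mice on chow, mouse 2 was at 0.471 FPKM and the other 3 at 1.08 to 1.16 FPKM. *Per3* was at 0.445 FPKM in control mouse 2 on chow, at 0.690 FPKM in ASKO mouse 0 on chow and at 0.641 FPKM in control mouse 3 on HFD, with the other 3 mice at 0. Each of these values stands for an estimated 0.725 to 3.0 fragments. No value of *Nr1d1*, *Nr1d2*, *Dbp* or *Tef* stood apart in this way, and no member passed the genotype-by-diet interaction.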

How the results depend on the processing

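For *Nr1d1*, *Nr1d2*, *Dbp* and *Tef* in the 6 comparisons, 570 of 610 recomputed fold changes kept their direction and side of the threshold. All 24 that changed sign were of contrasts that had not passed. The *Dbp* interaction became 0.0107 under quantile normalization, 0.077 under upper-quartile scaling and 0.25 when rescaled without the 10 highest genes, and *Tef* in ASKO mice became 0.10 and 0.11 under the last 2. Leaving out each mouse gave -0.37 to 0.0655 for *Nr1d1* on diet in control mice, -0.0587 to 0.41 for *Nr1d2* between genotypes on chow, -0.20 to 0.26 for its interaction, -0.0229 to 0.51 and -0.30 to 0.64 for *Dbp* between genotypes on chow and HFD, -0.56 to 0.38 for its interaction, and -0.36 to 0.20 for *Tef* on diet in ASKO mice. The *Nr1d1* call in ASKO mice was lost under upper-quartile scaling (adjusted p = 0.0556, limma), without the 10 highest genes (0.0676), with only the groups compared (0.0634), and without 7 of the 16 mice in turn. Averaged over genotypes, *Nr1d1* passed under the filter of 5 FPKM (0.0350), without control HFD mouse 3 (0.0293) or ASKO chow mouse 2 (0.0284), and *Nr1d2* under that filter (0.0438) and without ASKO chow mouse 1 (0.0360). The cause of these changes was not tested.

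Over all genes, 990 passed for diet averaged over genotypes, 383 in control and 451 in ASKO mice, 1 for genotype on each diet and 0 for the interaction. With only the groups compared, 255 passed in control and 265 in ASKO mice, 1 for genotype on chow and 0 on HFD. Without each mouse, the counts ran from 255 (without control chow mouse 1) to 421 in control mice, 265 (without ASKO HFD mouse 0) to 493 in ASKO mice, 0 to 4 and 0 to 3 for genotype on chow and HFD, and 0 to 1 for the interaction. Genotype gave 2 on either diet without a filter, 0 on either with a filter of 5 FPKM or with the replicate block, 0 on chow with upper-quartile scaling or robust estimation, and 0 on HFD with quantile normalization. Of the genes called for diet in ASKO mice 62.1% were higher on HFD, against 78.5% with upper-quartile scaling and 75.9% without the 10 highest genes, and for diet averaged over genotypes 59.6% against 71.0% with upper-quartile scaling. Upper-quartile scaling moved the median of all genes to 0.11 and 0.18 for these contrasts, and leaving out the 10 highest genes moved that of the interaction to 0.25. No *Arntl* relation passed in any of the 4 alternatives (0 each).

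The mice of 1 replicate number were different animals, and their deviations from the group means had correlations from -0.28 to 0.20 in 24 pairs (mean 0.007). Among the 4 replicate numbers, 7 of the 16 mice correlated best on average with their own. The main test took no pairing by number. Whether mice of 1 number shared a day or batch was not given in the sources used here. With the replicate block, 928, 361 and 390 genes passed for diet averaged over genotypes, in control and in ASKO mice, and *Nr1d1* averaged over genotypes passed (adjusted p = 0.0414, limma). At the estimated depth, the 5 members with about 1 fragment per mouse could show only very large differences.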
